A study of Homo sapiens with 4 samples.

Results

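Chromosome 19 carries large clusters of genes named ZNF and a number, which encode proteins with arrays of C2H2 zinc fingers. The genes studied here were those of chromosome 19 with such a symbol and with an ATAC-seq peak annotated as promoter, which means within 3 kb of a start site, in the first of the authors' deposited tables. Where a gene had several promoter peaks, the peak with the highest mean level was taken. This gave 134 genes of the 10187 genes with a promoter peak in the series. They had 146 promoter peaks, with a single peak at 123 genes and several at 11. Of the 134 symbols, 126 are a plain gene name and 8 name an antisense or readthrough transcript. The plain names include ZNF833P and ZNF321P, which are names of pseudogenes. Another 2 genes with a ZNF symbol on this chromosome had peaks away from promoters and are not members. All 134 peaks lie within 1 kb of an annotated start site, and 130 span it.

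Most of these proteins combine zinc fingers, which read DNA sequence, with a KRAB domain. The KRAB domain binds TRIM28, which brings the histone methyltransferase SETDB1 and heterochromatin proteins, and the best known targets of this silencing are transposable elements. The genes arose by tandem duplication and therefore lie in clusters of relatives. Some members act on the clusters themselves, such as ZNF274, which binds the ends of other zinc finger genes and brings SETDB1 there.

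The study measured open chromatin by ATAC-seq, an assay that tags accessible DNA with a transposase, in Kasumi-1, a t(8;21) acute myeloid leukaemia cell line. The 4 libraries were 2 controls carrying a non-targeting guide (sgNT, genotype WT) and 2 with CRISPR/Cas9 knockout of SETD8 (sgSETD8), the H4K20 monomethyltransferase now named KMT5A, each from 50000 cells. Time after editing, the guide sequences and whether the knockout cells were a clone or a pool are not given in the sources used here, and all 4 libraries come from the same cell line. Accessibility does not check the knockout itself. The labels do not say that the libraries numbered 2 are separate cultures.

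The values come from 2 deposited tables of hg38 peaks, of treated against control. The authors' first deposited table has 20556 peaks and does not name its libraries. Treated was read there as the knockout, and the direction of its fold changes rests on that reading. The authors' second deposited table has 13577 peaks and compares the libraries numbered 2, knockout against control. Its knockout library held 2091322 reads in peaks and its control library 4906719 normalised reads. The median peak had 125 knockout reads and 296 normalised control reads. Kasumi-1 was set against marker promoters. Of 9 myeloid progenitor markers 5 had a promoter peak (CD34, KIT, SPI1, CEBPA and PTPRC), whereas CD33, MPO, RUNX1T1 and CD38 had none. A promoter peak was present for 1 of 3 B cell markers, 3 of 4 T cell markers, 0 of 3 erythroid markers and 2 of 5 markers of other tissues. An open promoter does not by itself mean expression, so these counts check the label only in part.

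Promoter sequences are shown first, because members differed in them by position on the chromosome. RefSeq windows of assembly GRCh38.p14, from 250 bases before to 50 after the gene start, matched 119 of the 134 members. The member peak covered the whole window for 69 of them, part of it for 39 and none of it for 11. Each promoter is written on the strand of its gene. Capitals mark 2 motifs, on either strand: the CCAAT box CCAATCA, which NF-Y binds, and CCGGAAG, the core of sites of ETS factors. ZNF91 (chr19:23395422-23395721, minus strand) represses SVA retrotransposons and has both motifs. ZNF429 (chr19:21505352-21505651, plus strand) was the lowest well covered member of the first table. ZNF611 (chr19:52734995-52735294, minus strand), which binds SVA elements, was low in both tables. ZNF558 (chr19:8832255-8832554, minus strand), known to silence the mitophagy gene SPATA18, had the strongest peak. ZNF583 (chr19:56403764-56404063, plus strand) was the least lowered member of the second table and has neither motif.
ZNF91: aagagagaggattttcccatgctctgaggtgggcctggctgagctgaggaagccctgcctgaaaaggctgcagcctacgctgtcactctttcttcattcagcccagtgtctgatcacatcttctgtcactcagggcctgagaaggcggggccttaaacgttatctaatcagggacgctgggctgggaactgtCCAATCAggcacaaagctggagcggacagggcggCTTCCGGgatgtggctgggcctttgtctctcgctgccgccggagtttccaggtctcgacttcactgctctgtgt
ZNF429: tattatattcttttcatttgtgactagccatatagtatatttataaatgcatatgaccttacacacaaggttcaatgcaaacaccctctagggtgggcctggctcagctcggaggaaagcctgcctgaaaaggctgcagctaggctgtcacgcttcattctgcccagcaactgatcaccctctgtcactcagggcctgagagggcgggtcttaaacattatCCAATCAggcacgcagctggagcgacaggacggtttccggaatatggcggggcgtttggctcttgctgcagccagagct
ZNF611: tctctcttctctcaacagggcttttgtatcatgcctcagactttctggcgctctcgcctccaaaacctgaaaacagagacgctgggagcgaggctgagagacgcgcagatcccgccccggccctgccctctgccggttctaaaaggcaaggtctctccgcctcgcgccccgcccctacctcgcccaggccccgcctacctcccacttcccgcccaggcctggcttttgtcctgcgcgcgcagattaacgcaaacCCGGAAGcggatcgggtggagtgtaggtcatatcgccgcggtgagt
ZNF558: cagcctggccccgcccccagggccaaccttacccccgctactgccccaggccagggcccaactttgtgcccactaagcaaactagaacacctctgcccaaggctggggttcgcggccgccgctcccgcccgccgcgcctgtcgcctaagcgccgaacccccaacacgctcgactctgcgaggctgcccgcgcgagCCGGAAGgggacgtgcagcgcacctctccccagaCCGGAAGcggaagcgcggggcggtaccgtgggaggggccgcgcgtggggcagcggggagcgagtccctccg
ZNF583: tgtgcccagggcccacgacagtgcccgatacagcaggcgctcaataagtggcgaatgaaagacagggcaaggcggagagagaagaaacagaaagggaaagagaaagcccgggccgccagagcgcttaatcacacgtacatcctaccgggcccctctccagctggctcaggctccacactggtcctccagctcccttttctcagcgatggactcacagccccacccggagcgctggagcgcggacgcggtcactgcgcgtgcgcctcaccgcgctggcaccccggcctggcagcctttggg

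The core CCGGAAG was found in 51 of 119 members (42.9%), against 17.6% of the 484 other chromosome 19 promoters with a peak and a RefSeq window, 19.1% of the 8181 windows of all genes with a promoter peak, and 10.7% of all 27305 windows. The box CCAATCA was found in 38 members (31.9%), against 10.95%, 9.79% and 7.28%. Both motifs occurred together in 15 members and neither in 45. The longer ETS form CCGGAAGT, which contains the core, was in 22 members (18.5%, against 8.5% of all genes with a promoter peak). The other motifs searched were GGGGCGGGG (SP factors), at 24.4% against 27.1%, ACTACAA (part of the ZNF143 site), at 6.72% against 3.81%, TGTGGTT (RUNX factors), at 5.88% against 3.19%, TGACGTCA (CRE), at 4.20% against 3.30%, TATAAA, at 3.36% against 5.83%, GCGCATGCG (NRF1), at 2.52% against 3.91%, and AAGATGGCG (YY1), at 1.68% against 3.85%. A match describes letters in this window and not binding. The CCAAT box and the ETS core were chosen after promoter letters had been read, so their shares are a description. Windows of a cluster come from relatives and are not independent. Outside the fourth run of members, described below, 20 windows had the CCAAT box and 81 had not.

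**Figure D1:**
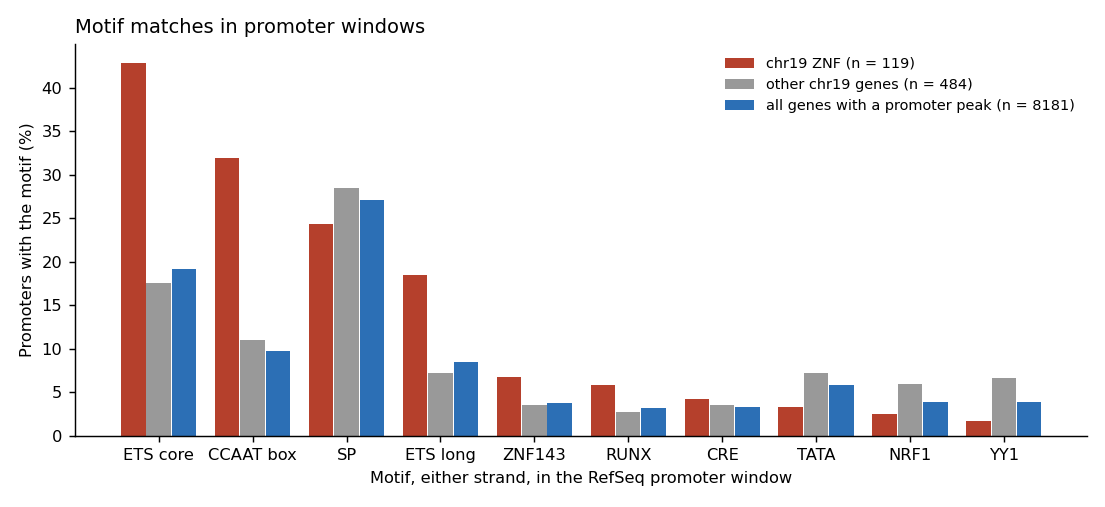
Share of RefSeq promoter windows (y axis, percent) with each motif on either strand (x axis), for the 119 chromosome 19 ZNF promoters with a window, the 484 other chromosome 19 promoters and the 8181 promoters of all genes with a promoter peak, which include the members. The ETS core stands at 42.9% and the CCAAT box at 31.9% of ZNF promoters, while SP matches are at 24.4%, near the share in the other sets. The ETS core and the CCAAT box were chosen after promoter letters had been read.

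Place and strand of the CCAAT box were shared in part. Of its 58 matches in members, 55 read in the direction of the gene and 48 began within 100 bases upstream of the start, with a median position of -58. The fourth run along the chromosome, described next, gave 28 of the 58, all in the direction of the gene. In the last run only 2 of 4 were, with a median position of -26.5. Over all genes with a promoter peak, 53.1% of 953 matches read in the direction of the gene, with a median position of -87. The ETS core had 58 matches in members, with a median position of -18, and 19 of them began after the start.

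Members fell into 8 runs along the chromosome, with less than 2 Mb between neighbouring start sites within a run. In order they held 4, 27, 1, 21, 1, 14, 16 and 50 genes. The fourth run, 21 genes from ZNF101 to ZNF254 with start sites from 19.67 to 24.09 Mb, had the CCAAT box in 18 of 18 windows and the ETS core in 11 of 18. The second run, from ZNF557 to ZNF791 (7.07 to 12.61 Mb), had the box in 12 of 24 windows and the core in 5. The last run, from ZNF473 to ZNF446 (50.03 to 58.48 Mb), had the box in 4 of 42 and the core in 27. The sixth run, from ZNF181 to ZNF540 (34.73 to 37.59 Mb), had the box in 0 of 14. Windows of the fourth run held a median of 10 CpG dinucleotides, against 18 in the second run, 24 in the last and 20 over all 119 members. The median of all genes with a promoter peak was 26. ZNF428 had the most CpG dinucleotides, 37, and ZNF574 the fewest, 6. The RefSeq window of ZNF574 is 1 of the 11 that the member peak does not touch, so its letters are not those of the open promoter measured.

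Relatives also shared letters outright. The longest identical stretch between the windows of any 2 members was 45 bases, in ZNF90 (chr19:20077750-20078049, plus strand) and ZNF93 (chr19:19900696-19900995, plus strand), the latter a repressor of L1 elements. Both lie in the fourth run, and capitals mark the stretch, at positions 95 to 139 and 93 to 137 of the windows.
ZNF90: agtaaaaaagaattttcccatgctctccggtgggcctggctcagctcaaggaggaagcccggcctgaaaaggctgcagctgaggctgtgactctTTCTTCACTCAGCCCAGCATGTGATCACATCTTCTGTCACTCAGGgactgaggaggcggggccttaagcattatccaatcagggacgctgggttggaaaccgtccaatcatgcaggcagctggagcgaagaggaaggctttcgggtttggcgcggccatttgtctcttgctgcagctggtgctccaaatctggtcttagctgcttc
ZNF93: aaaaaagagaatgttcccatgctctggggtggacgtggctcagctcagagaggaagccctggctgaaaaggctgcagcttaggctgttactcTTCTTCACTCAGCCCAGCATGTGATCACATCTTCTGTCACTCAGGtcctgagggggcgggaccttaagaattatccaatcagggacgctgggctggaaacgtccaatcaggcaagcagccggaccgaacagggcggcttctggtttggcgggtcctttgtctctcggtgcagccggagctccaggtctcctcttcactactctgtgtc

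Stretches of at least 30 bases shared with another member were found in 26 of 119 windows and stretches of at least 50 bases in 0. The median was 19 bases over all members and 35 in the fourth run. The sources used here do not say how reads that fit several sites were handled, and its part in the values below was not tested.

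Measured accessibility was lower in the knockout at nearly all member promoters, as at most peaks of both tables. In the first of the authors' deposited tables, 133 of 134 members had a negative log2 fold change of treated (read as knockout) against control. ZNF296 alone had a positive one, at 0.19. Negative values were also found at 18979 of all 20556 peaks and at 9919 of 10187 gene promoters. The median over members was -0.76 (quartiles -1.0 and -0.53, range -1.81 to 0.19), against -0.87 over all peaks of that table. In bulk ATAC-seq, fewer cells with an open promoter and a less open promoter in each cell cannot be told apart. Nor can either be told apart here from a difference in scaling or quality between the libraries, which was not tested. Members lower by at least 1, a halving of the level, numbered 35 (26.1%), against 38.9% of all peaks and 43.3% of the strongest promoter peaks of all genes. Of the members, 52 (38.8%) lay below the median of all peaks, where 49.3% of peaks do.

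A peak of the second of the authors' deposited tables overlapped the member peak by at least 1 bp for 109 members. All 109 had fewer normalised reads in the knockout library than in the control, as had 8292 of 8295 gene promoters. The median log2 fold change of the 109 members was -1.34 (quartiles -1.52 and -1.15, range -2.21 to -0.06), against -1.23 over all peaks of that table. Of these members 94 (86.2%) were lower by at least 1, against 76.1% of all peaks and 83.4% of gene promoters. Below the median of all peaks lay 73 members (67.0%), where 49% of peaks do. Relative to the median of its own table, the member median thus lay 0.11 above in the first table and -0.11, that is below, in the second. The first value is over all 134 members, and over the 109 with a second-table peak it was 0.05 above. The direction relative to other peaks was not the same in the 2 tables, and the difference was not tested, since the second table has 1 library per group and the first does not name its libraries.

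The 25 members without a second-table peak were weaker, with a median of 86.2 normalised reads in the first table against 202 over all members. Their median log2 fold change in the first of the authors' deposited tables was -0.68, against -0.82 for the 109 others. Over all members the mean level in the first table ranged from 48.2 to 1144 normalised reads (median 202), and 90 were at or above the level of the median peak of 142. In the second table members had 37 to 449 reads in the knockout library (median 124) and 85.6 to 1010 normalised reads in the control (median 315).

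**Figure D2:**
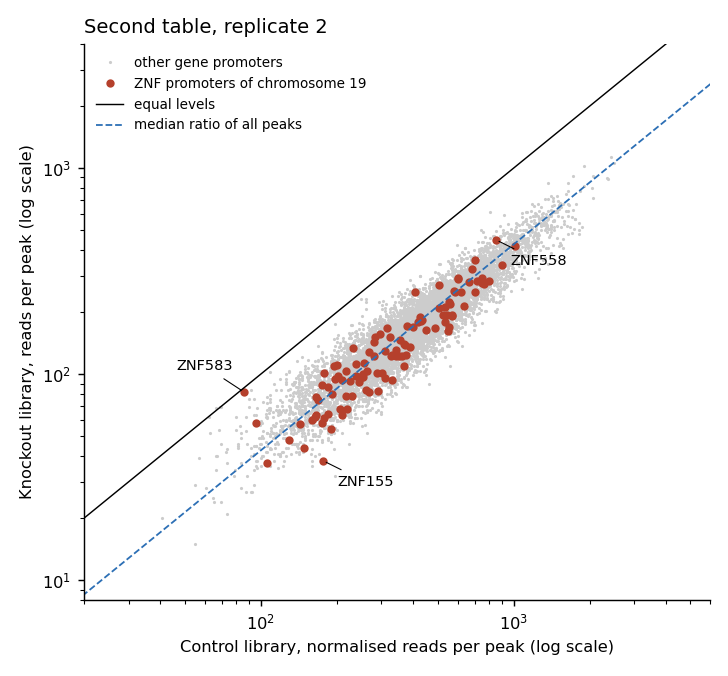
Levels of the 109 ZNF promoters with a second-table peak: normalised reads in the control library of replicate 2 (x axis, log scale) against reads in the knockout library (y axis, log scale), with other gene promoters in grey. All ZNF promoters lie below the line of equal levels and most lie near the dashed line of the median ratio of all peaks, with ZNF583 closest to equality and ZNF155 lowest.

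No member passed the authors' test, and nor did any other peak. The second table sets a single library against a single library, and the first does not name its libraries. The lack of calls is therefore not a trait of the members. The number past an adjusted p of 0.05 was 0 of 134 in the first of the authors' deposited tables (0% of all peaks), where the smallest adjusted p of a member was 0.731, and 0 of 109 in the second of the authors' deposited tables (0% of all peaks), where it was 0.578. These smallest values were also the smallest over all gene promoters. At an unadjusted p under 0.05 in the authors' test there were 0 members in the first of the authors' deposited tables. Over all 20556 peaks of the first table, 329 had such a p in the authors' test. Counting error alone was 0.0828 to 0.273 on the log2 scale (SE, median 0.15) for the second-table fold changes of members. Outside the 95% counting interval, 28 of 109 members lay below the median of that table, against 17% of all peaks, and 13 lay above it, against 17.8%. These errors cover counting only and not the spread between cultures, which may be larger.

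Both tables were also put into a fit with each table as a replicate. With limma on the 11117 peaks joined between the tables, 105 of 108 joined members passed an adjusted p of 0.05, all lower, where 96.7% of all joined peaks passed. After centring each table on its median, 0 of 108 members passed (0.054% of joined peaks did), and the smallest adjusted p of a member in limma was 0.16. An unadjusted p under 0.05 was reached by 9 of 108, and the share of all joined peaks at that p was not counted. The share called as deposited is near the background and the centred fit called no member. Whether the tables share libraries could not be checked.

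Other sets of promoters were used for comparison, each with the strongest promoter peak per gene. The 588 other genes of chromosome 19 had a median log2 fold change of -0.69 in the first of the authors' deposited tables and -1.22 in the second of the authors' deposited tables. The members, with medians of -0.76 and -1.34, differed from these by -0.07 and -0.12. The 170 ZNF genes of other chromosomes had -0.94 and -1.21 in the authors' deposited tables, and the 10187 genes of the series -0.93 and -1.26. In the first table both chromosome 19 sets were lowered less than the median gene promoter of the series. Lower by at least 1 were 18.4% of the other chromosome 19 genes and 44.1% of the ZNF genes of other chromosomes in the first table, against 26.1% of members. In the second table these shares were 81.6%, 78.2% and 86.2%. Members and the other chromosome 19 genes had median levels of 202 and 256 normalised reads in the first table. The differences between sets were not tested.

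**Figure D3:**
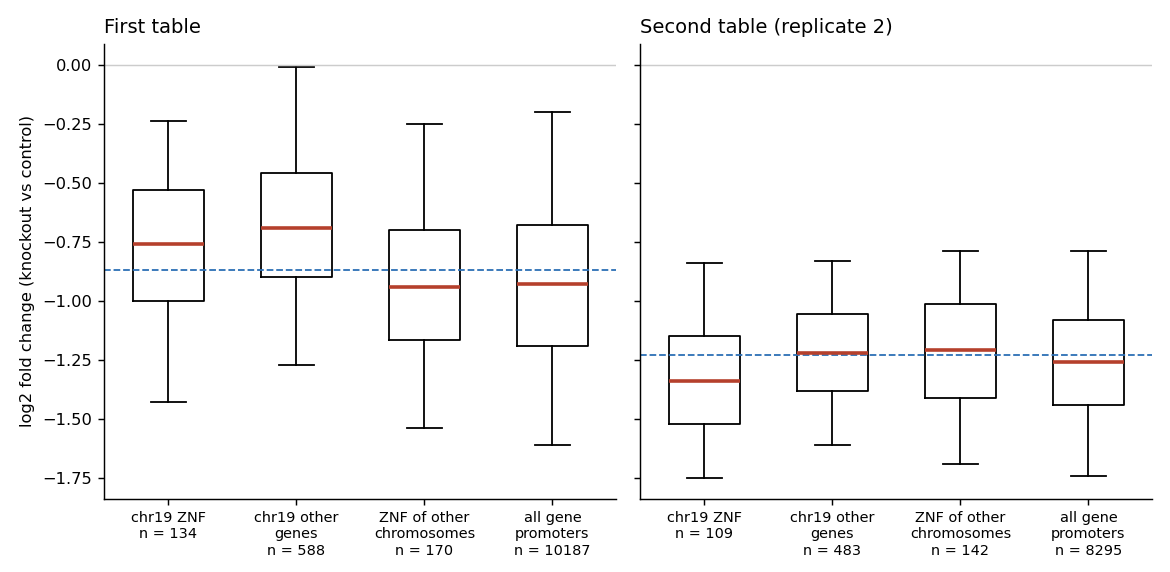
log2 fold change of knockout against control (y axis) at the strongest promoter peak of each gene, for the chromosome 19 ZNF genes and 3 other sets (x axis), in the first and the second table. Boxes span the quartiles, red lines are medians, whiskers reach the 5th and 95th percentiles and the dashed line is the median of all peaks. The ZNF median is above the dashed line in the first table (-0.76) and below it in the second (-1.34).

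The fourth run stood lowest among the runs with more than 1 member in the first table. Its 21 members had a median log2 fold change of -1.01 in the first of the authors' deposited tables (range -1.81 to -0.47) and 11 of them were lower by at least 1, against 38.9% of all peaks and 43.3% of gene promoters. In the second run 0 of 27 were, with a median of -0.69 and a range of -0.98 to -0.24. The last run had a median of -0.83 with 18 of 50 lower by at least 1, the sixth -0.69 with 1 of 14, and the seventh, from ZNF546 to ZNF296, -0.60 with 4 of 16. The first run, from ZNF554 to ZNF77, had -0.67 with 0 of 4. ZNF333 and ZNF507 stood alone, at -0.84 and -1.44.

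In the second of the authors' deposited tables the runs were closer together. The fourth run had a median of -1.41 over 19 members, of which 16 (84.2%) were lower by at least 1, against 76.1% of all peaks and 83.4% of gene promoters. The seventh and the last run stood at -1.41 and -1.42, over 11 and 40 members. The second run was at -1.25 over 24 members, with 19 lower by at least 1, the sixth at -1.28 over 9 and the first at -1.11 over 4. The fourth run was below the median of all peaks in both tables, by -0.14 and -0.18, and the second run was above it by 0.18 in the first and near it in the second, at -0.02. Values in the 2 runs overlap in both tables, and the difference was not tested.

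Genes of other kinds lie between the members. In the second run the 59 other promoters had medians of -0.63 and -1.15 in the authors' first and second deposited tables, against -0.69 and -1.25 for members there. In the last run 65 others had -0.62 and -1.31, against -0.83 and -1.42 for members. In the seventh run 51 others had -0.81 and -1.32, against -0.60 and -1.41 for members, so members were higher there in the first table and lower in the second. In the sixth run 30 others had -0.84 and -1.35, against -0.69 and -1.28. Only 2 other promoters lie within the fourth run, so values of the run and of its region cannot be told apart.

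**Figure D4:**
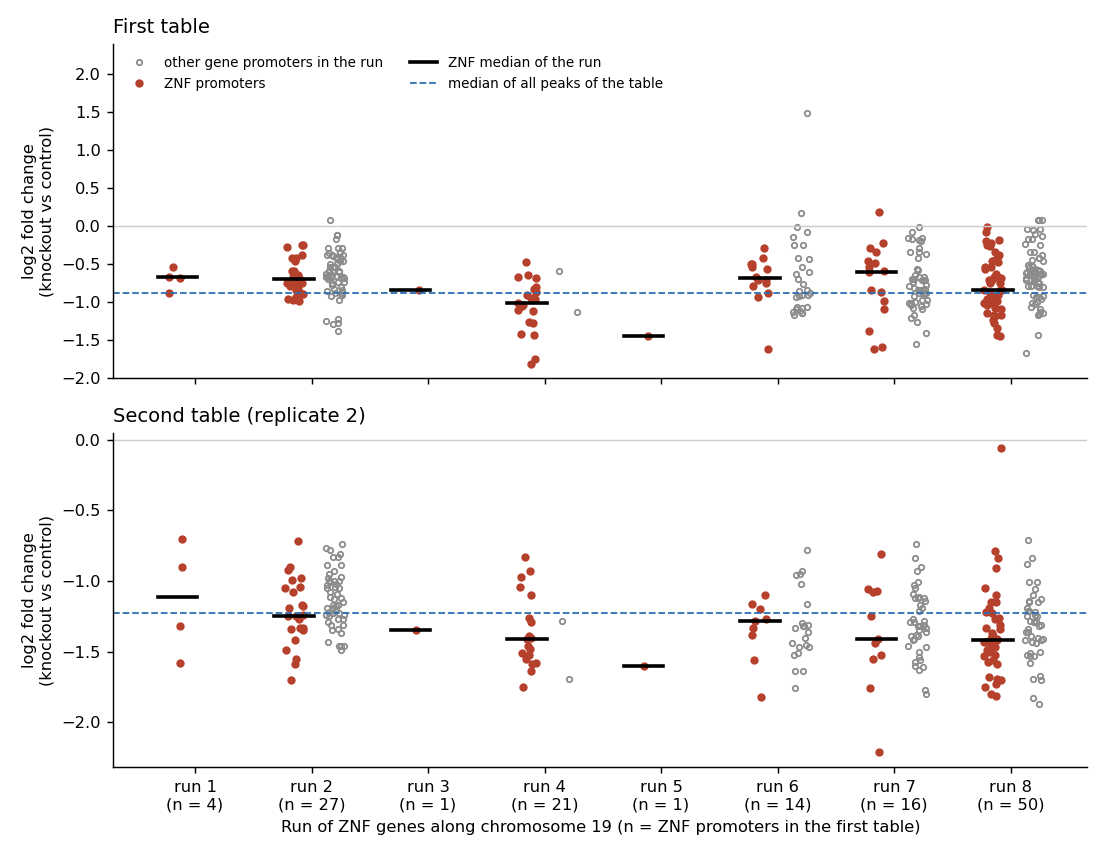
log2 fold change of knockout against control (y axis) for the members (red) and the other gene promoters between the first and last start site of the run (open grey), by run in order along chromosome 19 (x axis), in the first table (top) and the second (bottom). Black bars are run medians of members and dashed lines the medians of all peaks. Run 4 has its median at -1.01 in the first table, and run 2 has no member below -0.98 there.

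Within the fourth run ZNF429 and ZNF681 were lowest, with -1.74 and -1.81 in the first of the authors' deposited tables. ZNF681 was a weak peak of 111 normalised reads and had no second-table peak. ZNF429 had 101 knockout reads and 288 normalised control reads, a log2 fold change of -1.51 in the second of the authors' deposited tables. ZNF91 stood at -1.26 in the first of the authors' deposited tables, and at -0.97 in the second, from 143 knockout and 280 normalised control reads. Its neighbour ZNF675, whose window shares a stretch of 43 bases with that of ZNF91, had log2 fold changes of -1.10 and then -1.58 in the authors' deposited tables. ZNF90 and ZNF93, the pair with the longest shared stretch, had -1.11 and -0.68 in the first of the authors' deposited tables. ZNF93 had 140 knockout and 367 normalised control reads in the second table, and ZNF90 had no peak there. By length of the longest shared stretch, 18 of the 39 windows with the longest were lower by at least 1 in the first table, against 7 of the 40 with the shortest and 7 of the 40 between. The 18 of 39 is near the 43.3% of all gene promoters. Of the 18 windows of the fourth run, 15 are among the 39 with the longest, and the difference was not tested.

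Promoter letters were set beside fold change within the members as a description. The 11 windows that the member peak does not touch were kept in, although their letters are not those of the peak measured. Members with the ETS core had medians of -0.92 and -1.35 in the authors' first and second deposited tables, and those without it -0.73 and -1.33. Outside the fourth run these were -0.86 and -1.34 with the core, over 40 and 31 members, and -0.69 and -1.33 without, over 61 and 50. For the CCAAT box the medians were -0.87 and -1.36 with it and -0.75 and -1.34 without, but outside the fourth run -0.69 and -1.33 with it and -0.75 and -1.34 without. The first-table difference for the CCAAT box thus turned in sign once the fourth run was left out. Of the 15 members with both motifs, 11 are in that run, and 8 of the 15 were lower by at least 1 in the first table, where 43.3% of gene promoters were. By CpG number, 14 of the 40 windows with the fewest, 3 of the next 40 and 15 of the 39 with the most were lower by at least 1 in the first table, so the counts followed no order. The first and last of these lie near the shares of 38.9% of all peaks and 43.3% of gene promoters. Spearman's rho of CpG number with fold change was 0.05 over 119 members in the first table and -0.05 over 97 in the second. For peak level it was -0.16 over 134 and -0.01 over 109, and for peak width -0.03 and 0.02. For the longest shared stretch it was -0.16 over 119 members in the first table and -0.16 over 97 in the second. None of these was tested. Members of a run share ancestry and region, so they are not independent points.

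The strongest member promoter was that of ZNF558, at 8832135 to 8833181, with 1144 normalised reads in the first table. Its log2 fold change was -0.75 in the first of the authors' deposited tables and -0.92 in the second, from 449 knockout and 849 normalised control reads, with a counting error of 0.08. ZNF446, the last member of the chromosome, and ZNF524 followed in strength, with 989 and 885 normalised reads. ZNF446 had -0.83 and -1.46 and ZNF524 -0.83 and -1.27 in the authors' first and second deposited tables. In the second table the read numbers were 274 knockout and 760 normalised control for ZNF446, and 419 and 1010 for ZNF524. All 3 strong promoters were therefore close to the median of all peaks in the first table and spread on either side of it in the second.

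Among members at or above the level of the median peak, the lowest of the first table were, in order, ZNF429, ZNF780B, ZNF749, ZNF682, ZNF253 and ZNF611. Their log2 fold changes ran from -1.74 to -1.33 in the first of the authors' deposited tables, and ZNF429, ZNF682 and ZNF253 belong to the fourth run. ZNF780B, in the seventh run at 40055667 to 40056480, had -1.61 with an unadjusted p of 0.144 in the first of the authors' deposited tables. It had 80 knockout and 191 normalised control reads, or -1.25, in the second of the authors' deposited tables, which is the middle of that table. ZNF749 had -1.44 in the first of the authors' deposited tables and 123 knockout and 329 normalised control reads, or -1.42, in the second. ZNF682 had -1.43 in the first of the authors' deposited tables, but with 110 knockout and 195 normalised control reads it was among the less lowered of the second, at -0.83. ZNF253 showed the same order, with -1.41 and then -1.04 in the authors' deposited tables.

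The least lowered members of the first table at that level were ZNF543 (-0.07), ZNF776 (-0.22), ZNF180 (-0.22), ZNF274 (-0.25), ZNF784 (-0.26) and ZNF266 (-0.27) in the first of the authors' deposited tables. ZNF543 had 97 knockout and 251 normalised control reads in the second table, or -1.37, below the median there. ZNF274 had 168 knockout and 315 normalised control reads and stood at -0.91 in the second of the authors' deposited tables, 0.32 above the median. ZNF784 and ZNF266 had -1.43 and -1.34 in the second of the authors' deposited tables, and ZNF776 had -1.10. Of these 6 members, ZNF180, ZNF274 and ZNF776 were above the median in both tables and the other 3 in the first only. ZNF296, the single member with a positive value, had 120 normalised reads and no second-table peak.

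In the second table the lowest members at or above the level of its median peak were ZNF420, ZNF526, ZNF160, ZNF443, ZNF506 and ZNF763. ZNF420, also called APAK and known as a regulator of p53, had 94 knockout and 331 normalised control reads, a log2 fold change of -1.82 with a counting error of 0.17 in the second of the authors' deposited tables. It stood at -0.67 in the first of the authors' deposited tables, above the median. ZNF526 had 161 and 549 reads and -1.76 in the second of the authors' deposited tables, and ZNF160, linked to silencing of the TLR4 gene, had 110 and 370 reads and -1.75. ZNF443, ZNF506 and ZNF763 had -1.70, -1.59 and -1.59 in the second of the authors' deposited tables. Of the same 6 in the first of the authors' deposited tables, 5 lay above the median, at -0.80 to -0.53, and ZNF160 lay below it, at -1.01.

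The least lowered at that level were ZNF555 (-0.70), ZNF846 (-0.90), ZNF554 (-0.90), ZNF274 (-0.91), ZNF558 (-0.92) and ZNF14 (-0.93) in the second of the authors' deposited tables. ZNF554 and ZNF555 are neighbours in the first run, and ZNF554 is the first member of the chromosome. ZNF555 had 251 knockout and 407 normalised control reads and stood at -0.53 in the first of the authors' deposited tables. ZNF554 had 152 and 282 reads and -0.68, so these neighbours lay above the median in both tables.

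Below the level of the median peak the spread was wider. The lowest second-table value of any member was that of ZNF155, at -2.21 in the second of the authors' deposited tables, from 38 knockout and 176 normalised control reads, with a counting error of 0.26. The highest was that of ZNF583, a weak promoter with 52.3 normalised reads in the first table. It had 82 knockout and 85.6 normalised control reads, a log2 fold change of -0.06 with a counting error of 0.22 in the second of the authors' deposited tables. It stood at -0.47 in the first of the authors' deposited tables. The promoter of ZNF583 was thus the only member whose second-table levels were within counting error of each other.

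Some members lay to the same side of the median in both tables. Furthest below were ZNF611, ZNF507, ZNF816-ZNF321P and ZNF765, of which all but ZNF507 are in the last run. ZNF611 had -1.33 in the first of the authors' deposited tables and 83 knockout and 290 normalised control reads, or -1.80, in the second. ZNF507, which stands alone on the chromosome, had -1.44 and -1.60, from 68 and 205 reads, in the authors' deposited tables. The readthrough transcript ZNF816-ZNF321P and ZNF765 both had -1.18 in the first of the authors' deposited tables, and -1.81 and -1.59 in the second. Windows were available for all 4, with the ETS core in 3 of them and the CCAAT box in 0. The 3 are those of the last run, where 27 of 42 windows had the core, against 42.9% of all members with a window. Of the 4 furthest above the median, named next, ZNF180 has the core, ZNF491 the CCAAT box and ZNF583 neither, and ZNF888 has no window. All were picked by their values, so no link of motif and fold change was tested.

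Furthest above the median were ZNF491, ZNF888, ZNF180 and ZNF583. ZNF491 had -0.25 in the first of the authors' deposited tables and -0.72 in the second, from 58 knockout and 95.7 normalised control reads. ZNF888 had -0.38 and -0.79, from 134 and 231 reads, and ZNF180 had -0.22 and -0.81, from 101 and 177 reads, in the authors' deposited tables. The levels of ZNF491 and ZNF583, at 48.2 and 52.3 normalised reads, are at the weak end of the members, and those of ZNF888 and ZNF180, at 187 and 171, are near the middle. These members were picked for lying apart in both tables, so their values are a description. In the centred limma fit their adjusted p-values were 0.264 for ZNF491, 0.367 for ZNF888, 0.291 for ZNF180 and 0.16 for ZNF583.

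**Figure D5:**
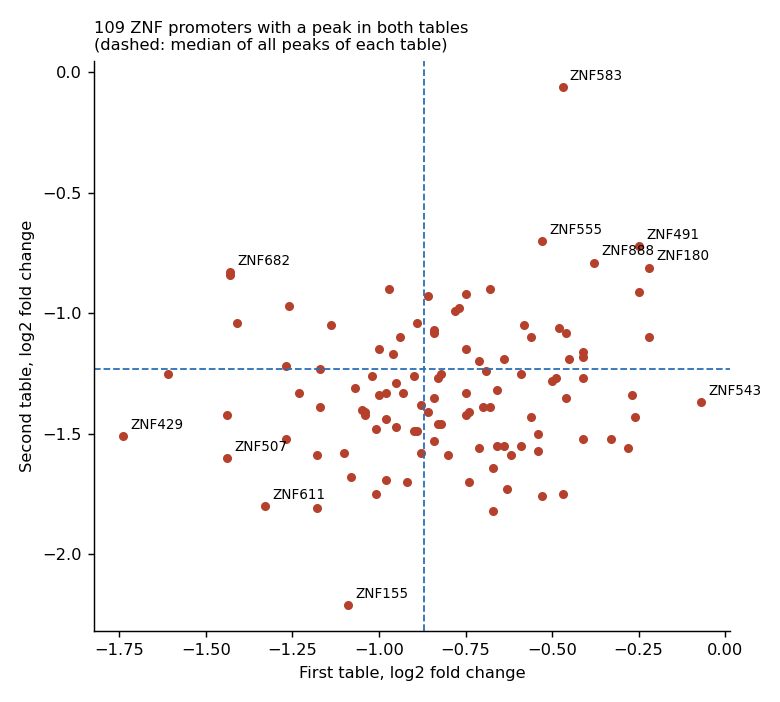
log2 fold change in the first table (x axis) and the second (y axis) for the 109 members with a peak in both, each point a gene. Dashed lines are the medians of all peaks of each table (-0.87 and -1.23), with ZNF611 and ZNF507 in the lower left and ZNF583, ZNF491, ZNF180 and ZNF888 in the upper right.

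The protein partners of KRAB zinc finger proteins form a list of 27 genes, of which 22 had a promoter peak. Their log2 fold changes had a median of -1.0 in the first of the authors' deposited tables, with 12 of 22 lower by at least 1 against 38.9% of all peaks and 43.3% of gene promoters, and -1.26 over 19 genes in the second, with 17 lower by at least 1 against 76.1% and 83.4%. TRIM28, the scaffold that KRAB domains bind, itself lies on chromosome 19 and had -1.03 and -1.31 in the authors' deposited tables, from 352 knockout and 867 normalised control reads in the second. SETDB1, the H3K9 methyltransferase it brings, had -0.38 and -1.15 in the authors' deposited tables, from 123 and 272 reads. By strength of the promoter peak the first 6 were CBX5, CBX3, TRIM28, SUV39H2, CBX1 and MORC3. The heterochromatin proteins CBX5 and CBX3 had -0.77 and -0.54, and CBX1 had -1.99, in the first of the authors' deposited tables. In the second these were -1.26, -1.16 and -1.89 in the authors' deposited values, so CBX1 was low in both. SUV39H2, an H3K9 methyltransferase, had -1.05 and -1.21 and MORC3, an ATPase linked to silencing of repeats, -0.67 and -1.53 in the authors' deposited tables. No partner passed the authors' test.

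Other zinc finger genes of chromosome 19 that carry no ZNF name were listed as well, and 10 of 21 had a promoter peak. Their median was -0.82 in the first of the authors' deposited tables, with 2 of 10 lower by at least 1 against 43.3% of gene promoters, and -1.07 over 7 genes in the second, with 5 lower by at least 1 against 83.4%. ZFP14 was the lowest of them in the first table, with -1.17, and had -1.64 in the second of the authors' deposited tables, the same as ZBTB32. The least lowered in the first, ZBTB7A, stood at -0.47 and -1.07. The imprinted gene PEG3 and its neighbours ZIM2 and ZIM3 had no promoter peak in the first table.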

How the data were processed

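ATAC-seq of Kasumi-1 cells gave 4 libraries, grouped by sample title into 2 sgNT and 2 SETD8 knockout libraries. Tools named in the submitters' processing notes are ChIPseeker, deepTools, MACS2 2.1.2, SAMtools, Bowtie2 and cutadapt, with build hg38 and no settings. Whether reads were shifted, deduplicated or scaled is not given in these sources. Values the authors deposited are log2 levels, log2 fold changes, p-values and adjusted p-values of each peak. Columns of the second table are named, per the file headers. The first has numbered columns, identified by order and values, and 2 further columns of levels there stayed unused, since nothing names their libraries.

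Neither table gives replicate values within a group that could be tied to named libraries, so fold sizes and the authors' p-values are the main results. A limma fit with each table as a replicate is an alternative. Second-table peaks were joined by at least 1 bp, taking the largest overlap. Reads of that table were computed back from levels with 2 decimals, and control reads are normalised (library factor 0.919, recovered from 87 weak values, of which 86.2% then gave whole reads within 0.005 on the log2 scale). Counting errors assume Poisson counts. Python 3.11.15, numpy 2.4.6, pandas 2.3.3, scipy 1.17.1, matplotlib 3.10.9, R 4.3.3 and limma 3.58.1 were used. The limma fit was tested on simulated data for 11117 joined peaks. It found 100 of 100 changes of size 2 and 100 of 100 of size 3, and called 9 of 10917 unchanged peaks. Smaller changes were not simulated. The centred member value furthest from the median was 0.835 (ZNF583), so the simulation does not tell how many changes of that size the fit would find. The planned grouping by KRAB box and finger number was not run, because no protein sequences were used here. Members, lists and motifs were chosen with earlier results of these data known, and the CCAAT and ETS core motifs after promoter letters had been read. Members named were the 3 strongest, the 6 lowest and 6 highest of each table at or above its median level, the 4 furthest to either side in both tables, and the ends of each property. ZNF155, ZNF681, ZNF296, ZNF675, ZNF91, SETDB1, ZFP14 and ZBTB7A were named after their values were seen. Gene lists were the partners of KRAB proteins, other chromosome 19 zinc finger genes and cell markers. The replicate numbers name libraries only; a replicate block is the limma fit above.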

Additional observations from a re-analysis of the deposited data

How the results depend on the processing

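Of 41 alternatives, 26 kept the direction and stayed within the spread used (an SD of 0.41 between the medians of the 2 tables, or 1.5 times for a count). Choice of the peak nearest the start site, plain symbols and a stricter overlap were among these. Some of the 26 could not differ from the main result. All 134 member peaks lie within 1 kb, so a limit of 1 kb left the same set. An adjusted p limit of 0.1 could add no member, since the smallest adjusted p of a member lay well above it. Members at or above the median level gave 51 of 59 lower by at least 1 in the second table, where fewer members were counted. At any level, 76.1% of all peaks and 83.4% of gene promoters of that table were. Centred on the median of all peaks, the member median became 0.11 in the first table, with the sign turned, and -0.11 in the second, and 0 members of either were lower by at least 1. With the level trend removed, an alternative chosen after seeing the data like the next, the medians were 0.14 (0.1375) and -0.08. Relative to the other chromosome 19 promoters they were -0.07 and -0.12. Lower by at least 0.5 were 104 of 134 first-table members, and by at least 1.5 were 5 of the first and 31 of the second table. The shares of all peaks past these 2 sizes were not counted, so these numbers do not set members apart from other peaks. The replicate block over both tables gave a median of -1.095 as deposited and 0.005 centred. With that limma block 105 of 108 joined members passed an adjusted p of 0.05 as deposited, in place of 0 in each table. In the same fit 96.7% of all joined peaks passed, so this count is near the background. Centred, 0 of 108 members passed, against 0.054% of joined peaks. Centring moves all peaks alike, so it turns the sign without changing a member's place among them. That place differed between the tables, and the cause was not tested. Leaving out single libraries was not possible, because each table was deposited as a single comparison. Depth limits single members: at 37 to 449 knockout reads, counting error alone reaches 0.273.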
